A study of Homo sapiens with 6 samples.

Results

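The open chromatin around 8 genes of fibroblast growth factor (FGF) signalling and of its feedback on ERK was described in human embryonic stem cells: the ligands FGF2, FGF4, FGF8 and FGF19, the receptor FGFR1, and the feedback inhibitors DUSP6, SPRY2 and SPRY4. A region was taken as a member when its midpoint lay in one of 7 hg19 windows, with FGF19 and FGF4 sharing a window. No measured value of a region entered this rule, but the members were chosen with earlier results of these data known. The rule gave 41 of the 118556 open regions in the count table. The cells were WA09, a human embryonic stem cell line, sorted by antibodies to surface markers into a high population (GCTM-2highCD9highEPCAMhigh) and a mid population (GCTM-2midCD9mid, called low in the sample names), with 3 samples of each. FAST-ATAC was used, in which the Tn5 transposase inserts adapters into accessible DNA, so the reads over a region count how often it was cut. Both populations came from cultures of the same line, and the study's methods call the samples biological replicates but do not say whether they were separate cultures, so the p-values measure the spread between these samples. In sorted populations, fewer cells with an open region cannot be told apart from less cutting of that region in each cell.

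FGF ligands bind receptor tyrosine kinases such as FGFR1 and pass the signal through RAS and RAF to the kinases MEK and ERK. Human embryonic stem cells are cultured with FGF2, and ERK activity is part of how they keep primed pluripotency. ERK output is limited by proteins whose genes it induces: DUSP6 is a phosphatase that removes the activating phosphates of ERK, and the Sprouty proteins SPRY2 and SPRY4 act between the receptor and RAF. FGF4 is a classical target of OCT4 and SOX2, FGF8 acts in gastrulation and patterning, and FGF19 is an endocrine factor of bile acid control that is also made by pluripotent cells.

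The sequences before the starts of 4 of these genes are given, the 3 feedback inhibitors and FGF2, to show the sequence ahead of each gene. They are the 250 bases before the RefSeq start in GRCh38.p14, on the gene's strand, and capitals mark a match to the ETS letters CCGGAA, since ETS factors are among the nuclear targets of ERK. Because the open regions are placed on hg19, none of them was assigned to these bases.
FGF2, plus strand, chr4:122826581-122826830: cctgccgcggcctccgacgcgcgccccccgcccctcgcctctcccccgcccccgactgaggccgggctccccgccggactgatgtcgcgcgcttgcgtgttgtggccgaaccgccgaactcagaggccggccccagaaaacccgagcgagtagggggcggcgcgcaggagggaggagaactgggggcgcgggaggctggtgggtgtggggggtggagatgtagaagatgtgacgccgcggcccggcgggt
DUSP6, minus strand, chr12:89352502-89352751: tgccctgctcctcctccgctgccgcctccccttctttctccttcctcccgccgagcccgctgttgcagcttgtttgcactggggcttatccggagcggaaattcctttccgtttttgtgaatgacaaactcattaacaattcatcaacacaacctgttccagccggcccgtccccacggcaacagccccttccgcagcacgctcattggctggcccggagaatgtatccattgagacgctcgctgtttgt
SPRY2, minus strand, the most upstream of 3 listed starts, chr13:80341127-80341376: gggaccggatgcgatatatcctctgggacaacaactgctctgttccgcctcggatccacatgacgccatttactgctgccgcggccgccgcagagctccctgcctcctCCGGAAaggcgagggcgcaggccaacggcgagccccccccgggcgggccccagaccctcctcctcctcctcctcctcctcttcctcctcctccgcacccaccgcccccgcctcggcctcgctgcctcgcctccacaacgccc
SPRY4, minus strand, chr5:142324248-142324497: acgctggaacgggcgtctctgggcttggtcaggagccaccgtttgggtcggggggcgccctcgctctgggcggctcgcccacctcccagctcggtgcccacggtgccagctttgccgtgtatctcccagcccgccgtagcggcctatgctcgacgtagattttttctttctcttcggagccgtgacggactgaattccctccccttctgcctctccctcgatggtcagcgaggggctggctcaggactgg
The SPRY2 sequence held the ETS letters once, at base 109, and the other 3 sequences did not hold them. On either strand these letters were present in 14.5% of 35116 promoter sequences of the same length. The AP-1 letters TGANTCA (6.57% of promoters) and the octamer ATGCAAAT (1.63%) were found in none of the 4 sequences. The GC content was 75.2% before FGF2, 57.2% before DUSP6, 70.4% before SPRY2 and 65.6% before SPRY4, against a median of 58% over all promoters.

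At an adjusted p under 0.01 in edgeR's quasi-likelihood test, 1 of the 41 regions was higher in high and 2 were higher in mid. The region that was higher in high lay at DUSP6, the ERK phosphatase gene, and those higher in mid lay at FGF19/FGF4 and at SPRY4. As shares these were 2.44% and 4.88% of the members, where over all regions tested 2.32% were called higher in high and 3.77% higher in mid, so both shares were near the background. The median log2 fold change of high over mid was -0.07 over the members and 0.03 over all regions, and 16 members were positive and 25 negative. That split moved with the scaling, to 14 and 27 with RLE or upper quartile factors, 21 and 20 with total counts, and 20 and 21 with offsets fitted on region width. The calls over all regions moved likewise, from 2747 higher in high and 4472 higher in mid to 4971 and 3179 with total counts. Levels in CPM, the read counts scaled to a common library size by TMM, did not overlap between populations in 13 members: the 3 high samples were above the 3 mid samples in 5 (12.2%, against 12.9% of all regions) and below them in 8 (19.5%, against 13.0%). The members' log2 fold changes ran from -0.60 to 0.74, and the 10th and 90th percentiles of all regions were -0.46 and 0.52.

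**Figure D1:**
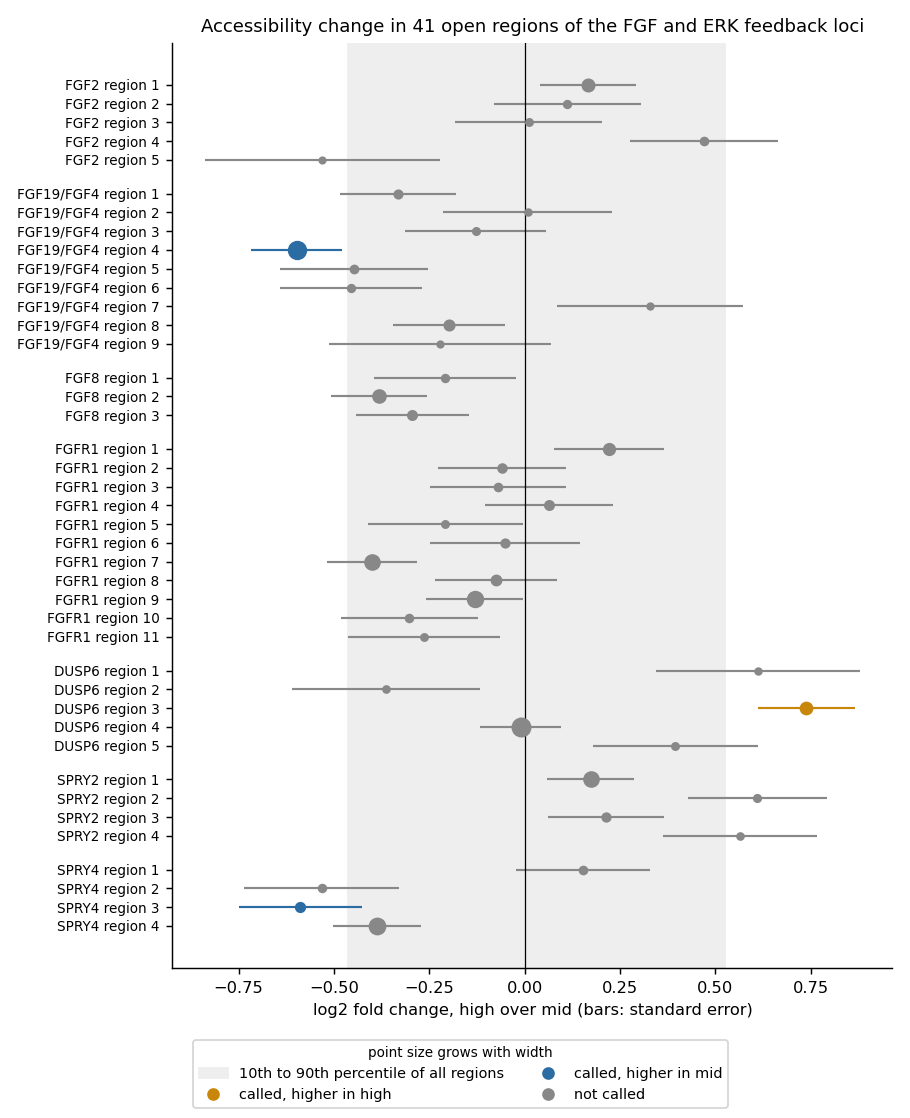
Log2 fold change of high over mid with its standard error for each of the 41 regions, ordered by locus and numbered along the chromosome; the grey band spans the 10th to 90th percentile of all regions. DUSP6 region 3 (0.74) is the only region called higher in high, FGF19/FGF4 region 4 (-0.60) and SPRY4 region 3 (-0.59) are called higher in mid, and the 4 SPRY2 regions all lie above 0.

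The 2 inhibitor loci DUSP6 and SPRY4 moved in opposite directions at their called regions. At DUSP6 (12:89.72-89.77 Mb, 5 regions), region 3, 12:89738206-89741808, gave 43.4, 37.0 and 40.3 CPM in high replicates 1, 2 and 3 and 25.8, 23.2 and 23.4 CPM in mid replicates 1, 2 and 3. All high samples stood above all mid samples, at 40.3 ± 3.20 against 24.1 ± 1.43 CPM (mean ± SD, n = 3 each). Its log2 fold change was 0.74 (SE 0.13, adjusted p = 4.57e-05), and the 3 same-numbered pairs gave 0.75, 0.67 and 0.79. The call was kept in 19 of 21 alternatives and lost without replicate 2 (adjusted p = 0.0247) and without mid replicate 2 (adjusted p = 0.0236). The neighbouring region 4, 12:89742496-89749565, was the most accessible of all 41 members and gave 155.5, 134.6 and 127.9 CPM in high and 157.7, 132.5 and 130.8 CPM in mid. Its samples overlapped, with replicate 1 highest in both populations, and its log2 fold change was -0.01 (SE 0.11, adjusted p = 0.964). The 3 small regions of the window held 1.28 to 4.39 CPM. Of these, region 1 had a log2 fold change of 0.61 (adjusted p = 0.120), region 2 of -0.36 (adjusted p = 0.343) and region 5 of 0.40 (adjusted p = 0.228). RefSeq lists a DUSP6 read-through transcript with its neighbour POC1B, so regions of this window may not belong to DUSP6 alone.

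The adjacent DUSP6 regions were also compared as a ratio of their counts within each library, where a factor common to the whole library cancels. This ratio uses the same counts as the fold changes above, so it is not separate support. A change that goes with width does not cancel, and the regions are 3603 and 7070 bp wide. With offsets fitted on region width, their log2 fold changes were 1.01 and 0.45. The counts of region 3 were 0.279, 0.275 and 0.315 of those of region 4 in the high samples and 0.163, 0.175 and 0.179 in the mid samples. The ratio was thus 1.68-fold higher in high, with no overlap between populations (p = 0.1 in a two-sided exact permutation test, which cannot go lower with 3 against 3, and 0.3 adjusted over 6 such ratios). The ratios were chosen after the values were seen, and 4 of the 6 overlapped between populations. Besides SPRY4 region 3 over region 4, these were FGF8 region 2 over 3 (exact permutation p = 0.7), FGFR1 region 7 over 9 (p = 0.2) and SPRY2 region 2 over 1 (p = 0.4).

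**Figure D2:**
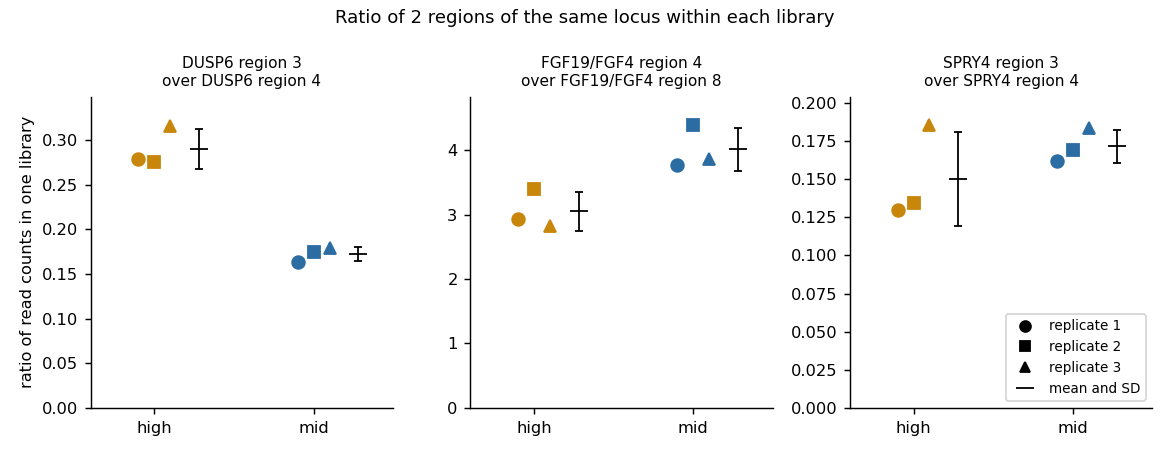
Counts of 1 region divided by counts of another region of the same locus in each library, with the mean and SD of 3 samples per population. The DUSP6 ratio lies at 0.275 to 0.315 in high and 0.163 to 0.179 in mid, the FGF19/FGF4 ratio is lower in every high sample, and the SPRY4 ratios overlap.

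SPRY4 (5:141.67-141.73 Mb, 4 regions) encodes a Sprouty inhibitor of receptor signalling. Its region 3, 5:141698941-141701148, gave 9.13, 8.98 and 12.5 CPM in high and 16.6, 14.5 and 14.9 CPM in mid. The high samples were all below the mid samples, with high replicate 3 nearest to them, and the means were 10.2 ± 2.0 and 15.3 ± 1.12 CPM. The log2 fold change was -0.59 (SE 0.16, adjusted p = 0.00969), close to the threshold, and the pairs gave -0.86, -0.69 and -0.25. Without the replicate block the adjusted p was 0.0642, and the call was kept in 7 of 21 alternatives, with adjusted p from 0.00144 to 0.234. It was lost without replicate 1 (0.0395), replicate 2 (0.231), high replicate 1 (0.0331), high replicate 2 (0.184), mid replicate 1 (0.0543) or mid replicate 2 (0.234). The call was also lost with DESeq2 (0.0312), total counts (0.0214) and both sets of loess offsets, so it was kept in 2 of 5 other scalings. With replicate 1, 2 or 3 set apart as a batch it was lost too (0.0165, 0.0736 and 0.0380). The most accessible region of the locus, region 4 at 5:141702063-141707921, gave 70.2, 66.9 and 67.4 CPM in high and 102.1, 85.6 and 81.1 CPM in mid. These groups did not overlap either, with a log2 fold change of -0.39 (SE 0.11, adjusted p = 0.0176) that missed the threshold. Region 2 had -0.53 (adjusted p = 0.0716) and region 1 had 0.15 (adjusted p = 0.603). The ratio of region 3 to region 4 overlapped between populations (exact permutation p = 0.4, 0.48 adjusted), so the 2 SPRY4 regions were not shown to differ from each other.

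At SPRY2 (13:80.88-80.94 Mb), the other Sprouty gene, all 4 regions had positive log2 fold changes, under each of the 5 other scalings as well, and none was called. The most accessible, region 1 at 13:80912644-80917861, gave 99.7, 82.9 and 75.9 CPM in high and 86.1, 69.7 and 72.9 CPM in mid. The populations overlapped and the log2 fold change was 0.17 (SE 0.11, adjusted p = 0.325). Region 2, 13:80929484-80930558, gave 8.27, 10.6 and 9.07 CPM in high and 4.17, 6.62 and 7.78 CPM in mid, and its log2 fold change was 0.61 (SE 0.18, adjusted p = 0.0175). Its groups did not overlap, but high replicate 1 and mid replicate 3 lay close together. Region 4 had 0.57 (adjusted p = 0.0513) and region 3 had 0.21 (adjusted p = 0.369).

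**Figure D3:**
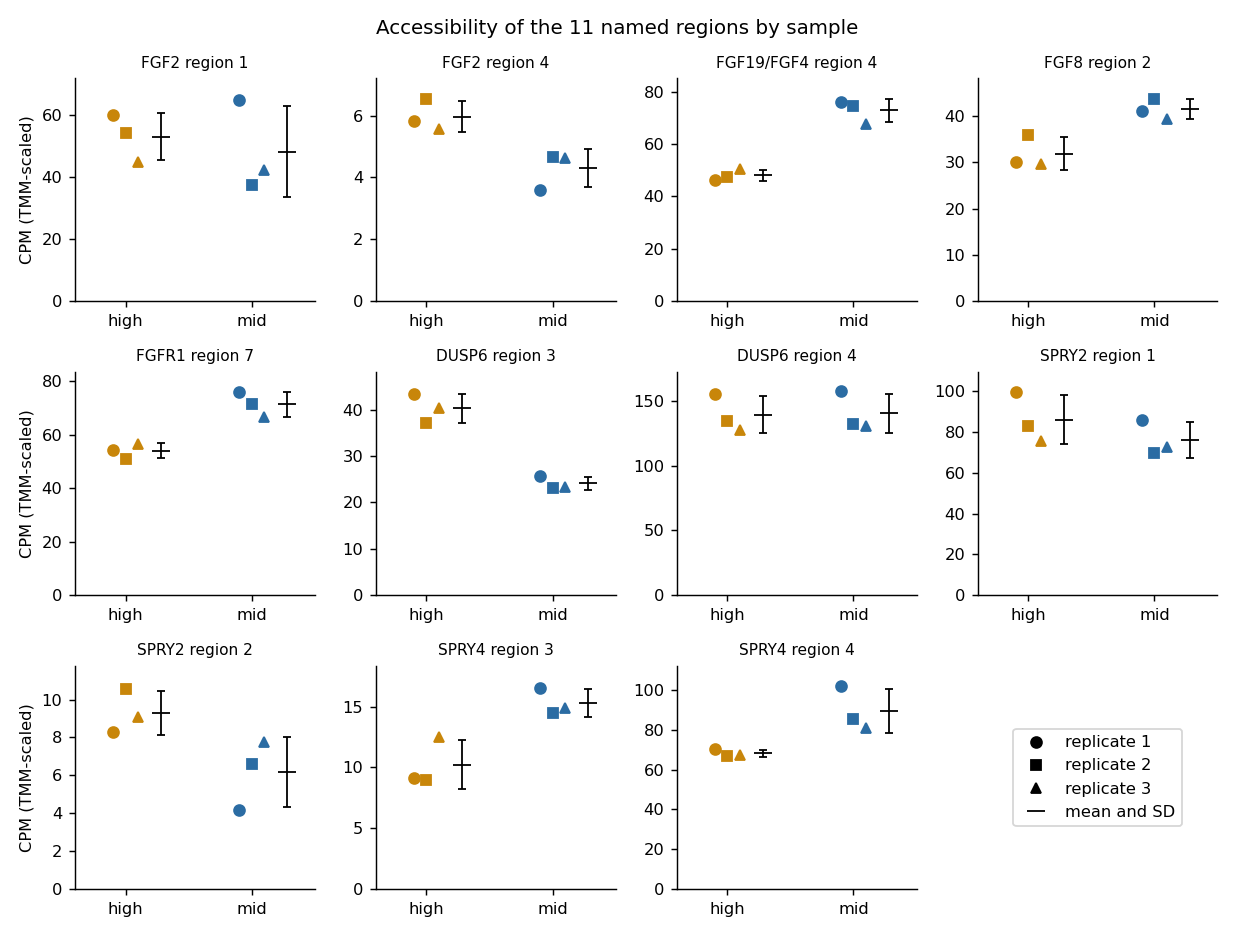
CPM of the 11 regions named by rule, 1 panel each, with points for the 3 high and 3 mid samples and the mean and SD beside them; every axis starts at 0. DUSP6 region 3 separates upward in high (40.3 against 24.1 CPM on average), FGF19/FGF4 region 4 and SPRY4 region 3 separate downward, and DUSP6 region 4 overlaps.

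Among the ligands, the FGF19/FGF4 window (11:69.49-69.61 Mb, 9 regions) held the second region called higher in mid. Region 4, 11:69514992-69521710, gave 46.3, 47.6 and 50.3 CPM in high and 76.0, 74.7 and 67.8 CPM in mid. The means were 48.1 ± 2.03 and 72.8 ± 4.36 CPM, every high sample was below every mid sample, and the log2 fold change was -0.60 (SE 0.12, adjusted p = 0.000344), with -0.71, -0.65 and -0.43 in the pairs. The call was kept in 15 of 21 alternatives, and was lost without replicate 2 (adjusted p = 0.110), without high replicate 2 (0.0634) or without mid replicate 2 (0.109), when replicate 2 alone formed a batch (0.0166), and with both sets of loess offsets. Within each library its counts were 2.93, 3.39 and 2.83 times those of region 8 in high and 3.77, 4.39 and 3.86 times in mid (exact permutation p = 0.1, 0.3 adjusted). Region 4 is 6719 bp wide and region 8 2699 bp, so a change that goes with width does not cancel here. Region 8, 11:69588153-69590851, itself had 15.8, 14.0 and 17.8 CPM in high and 20.1, 17.0 and 17.6 CPM in mid, with a log2 fold change of -0.20 (adjusted p = 0.390). In all, 7 of the 9 regions were negative, and 7 or 8 under the other scalings. The other regions ran from -0.45 for regions 5 and 6 to 0.33 for region 7, with adjusted p of 0.0942 or more. FGF19 and FGF4 are neighbours in RefSeq, with LTO1 next to FGF19 and FGF3 next to FGF4. No hg19 annotation was used, so no region was assigned to 1 of these genes.

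FGF8 (10:103.51-103.55 Mb) had 3 regions, all with negative log2 fold changes and none called. Region 2, 10:103537400-103541493, gave 30.0, 35.9 and 29.7 CPM in high and 41.1, 43.7 and 39.4 CPM in mid, and its log2 fold change was -0.38 (SE 0.13, adjusted p = 0.0338). Its groups did not overlap, nor did those of region 3 (log2 fold change -0.29, adjusted p = 0.181). Region 1 had -0.21 (adjusted p = 0.487). RefSeq lists NPM3 as the next gene on the higher side of FGF8, so regions of this window may not belong to FGF8 alone.

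FGF2 (4:123.73-123.84 Mb), the ligand supplied in culture, had 5 regions and none called. Region 1, 4:123746958-123750726, gave 60.0, 54.2 and 44.9 CPM in high and 64.9, 37.4 and 42.2 CPM in mid. Mid replicate 1 was the highest of the 6 and mid replicate 2 the lowest, and the log2 fold change was 0.17 (SE 0.13, adjusted p = 0.402). Region 4, 4:123824378-123825717, had the smallest p of the locus, with 5.82, 6.52 and 5.56 CPM in high and 3.61, 4.67 and 4.64 CPM in mid and a log2 fold change of 0.47 (SE 0.19, adjusted p = 0.0963). Regions 2 and 3 had 0.11 and 0.01, and region 5, at 0.741 to 2.67 CPM, had -0.53 (adjusted p = 0.257). FGF2 overlaps NUDT6 in RefSeq.

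The receptor locus FGFR1 (8:38.25-38.35 Mb) held the most regions, 11, of which 9 were negative (5 with total counts or with offsets fitted on region width) and none was called. Region 7, 8:38296441-38301646, gave 54.3, 50.9 and 56.6 CPM in high and 75.9, 71.3 and 66.7 CPM in mid. The groups did not overlap, and the log2 fold change of -0.40 (SE 0.12, adjusted p = 0.0170) missed the threshold. The other wide region of the locus, region 9, had 37.9 CPM in high and 42.1 CPM in mid on average with overlapping samples (log2 fold change -0.13, adjusted p = 0.530). The remaining regions ran from -0.30 for region 10 to 0.22 for region 1, each with overlapping samples and with adjusted p of 0.269 or more. RefSeq lists LETM2 and TACC1 as the genes next to FGFR1, so regions of this window may not belong to FGFR1 alone.

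Summed over each window, the 7 loci separated into loci with more reads in mid and loci with more reads in high, but the exact tests could not pass a threshold of 0.05, since their smallest p is 0.1 with 3 samples against 3 and 0.25 with 3 pairs. FGF19/FGF4 gave 101.3 ± 6.34 CPM in high and 135.8 ± 7.5 in mid (log2 ratio -0.42). SPRY4 gave 90.1 ± 2.69 and 117.5 ± 12.5 (log2 ratio -0.38), FGF8 52.1 ± 3.85 and 65.8 ± 3.08 (log2 ratio -0.34) and FGFR1 173.1 ± 9.41 and 196.4 ± 10.7 (log2 ratio -0.18). In these 4 loci every high sample was below every mid sample. SPRY2 was the reverse, with 122.0 ± 12.0 in high and 104.8 ± 3.05 in mid (log2 ratio 0.21). For these 5 loci the exact permutation test gave p = 0.1, its smallest value (0.14 adjusted over 7 loci). A single region held 51.3% of the summed counts at FGF19/FGF4, 75.8% at SPRY4, 62.1% at FGF8, 34.1% at FGFR1 and 71.7% at SPRY2. The sums of most of these loci thus largely repeat their top region. How often comparable windows separate over the whole table was not counted. DUSP6 (188.5 ± 17.8 against 172.1 ± 16.8, log2 ratio 0.13, exact p = 0.3) and FGF2 (72.1 ± 9.30 against 65.6 ± 13.5, log2 ratio 0.15, exact p = 0.5) overlapped. The 3 same-numbered pairs of DUSP6 all gave log2 differences of 0.12 to 0.14. Those of FGF2 gave -0.02, 0.44 and 0.02, so its positive ratio came mainly from replicate 2. No log2 ratio changed sign with total counts, RLE or upper quartile factors, and the loess offsets were not applied to the summed counts. With total counts FGFR1 was at -0.09 (exact p = 0.2) and DUSP6 separated (0.22, exact p = 0.1). With upper quartile scaling SPRY2 overlapped (0.19, exact p = 0.3). With offsets fitted on region width, the single regions had a median log2 fold change of 0.002 at FGFR1 and -0.22 at SPRY4. In the main fit these medians were -0.07 and -0.46. With each region weighted equally, as the mean of log2 CPM, FGFR1 was at -0.12 (exact p = 0.3) and DUSP6 at 0.28 (exact p = 0.1), and without replicate 1 the FGFR1 ratio was -0.10. As a description over these 6 samples, the locus most like FGF19/FGF4 was FGFR1 (Pearson r = 0.94), FGF8 was most like FGF19/FGF4 (0.91), SPRY4 most like FGFR1 (0.94), FGF2 most like DUSP6 (0.88) and SPRY2 most like DUSP6 (0.76), and all loci share the same libraries and scaling.

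**Figure D4:**
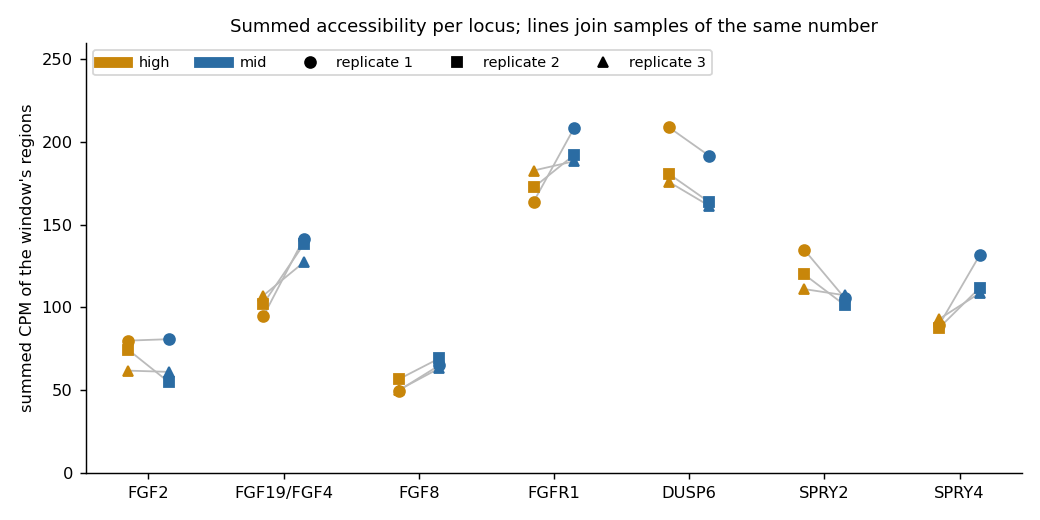
Summed CPM of the member regions of each of the 7 windows in every sample, with lines joining samples of the same number. FGF19/FGF4, FGF8, FGFR1 and SPRY4 are lower in each high sample, SPRY2 is higher in each high sample, and FGF2 and DUSP6 overlap.

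Per kilobase of region, DUSP6 region 4 was the most accessible of the top regions of the 7 loci in both populations, at 19.7 ± 2.04 CPM per kb in high and 19.8 ± 2.13 in mid. The order below it differed between populations. In high it ran from SPRY2 region 1 (16.5 ± 2.34) through FGF2 region 1 (14.1 ± 2.03), SPRY4 region 4 (11.6 ± 0.309), FGFR1 region 7 (10.4 ± 0.547) and FGF8 region 2 (7.78 ± 0.863) to FGF19/FGF4 region 4 (7.15 ± 0.302). In mid it ran from SPRY4 region 4 (15.3 ± 1.89) through SPRY2 region 1 (14.6 ± 1.67), FGFR1 region 7 (13.7 ± 0.877), FGF2 region 1 (12.8 ± 3.89) and FGF19/FGF4 region 4 (10.8 ± 0.65) to FGF8 region 2 (10.1 ± 0.535). Neighbours differed by less than the larger of their SDs for FGF8 and FGF19/FGF4 in high, and for each step from SPRY4 down to FGF19/FGF4 in mid. All 7 were above the median of 4.43 CPM per kb over all regions. Each was picked for the highest mean CPM of its window, so this does not describe the loci as wholes.

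Width moved with the direction of change over the whole table, which bears on these loci because their main regions were wide. Over all regions the median log2 fold change was 0.13 in the narrow regions of 572 to 631 bp and -0.23 in those of 2150 bp or more, where 22.4% were called higher in mid and 1.71% higher in high. Of the 754 regions of at least 5000 bp, 51.5% were called higher in mid and the median was -0.45. Among the members, 6 were that wide: FGF19/FGF4 region 4, FGFR1 regions 7 and 9, DUSP6 region 4, SPRY2 region 1 and SPRY4 region 4. Against the median of -0.45, DUSP6 region 4 (-0.01), SPRY2 region 1 (0.17) and FGFR1 region 9 (-0.13) stood above the middle 50% of such regions, which ran from -0.63 to -0.25, while FGF19/FGF4 region 4 (-0.60), FGFR1 region 7 (-0.40) and SPRY4 region 4 (-0.39) lay inside it. When offsets were fitted by loess on region width, DUSP6 region 3 had a log2 fold change of 1.01 (adjusted p = 1.92e-07) and FGF19/FGF4 region 4 had -0.15 (adjusted p = 0.351). With those offsets, 4 members were called higher in high (DUSP6 regions 3 and 4, SPRY2 region 1 and FGF2 region 1) and 0 higher in mid, so the call at FGF19/FGF4 depended on the scaling. Over all 118556 regions the same fit called 3236 higher in high and 2836 higher in mid. The part of width in these changes was not tested.

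**Figure D5:**
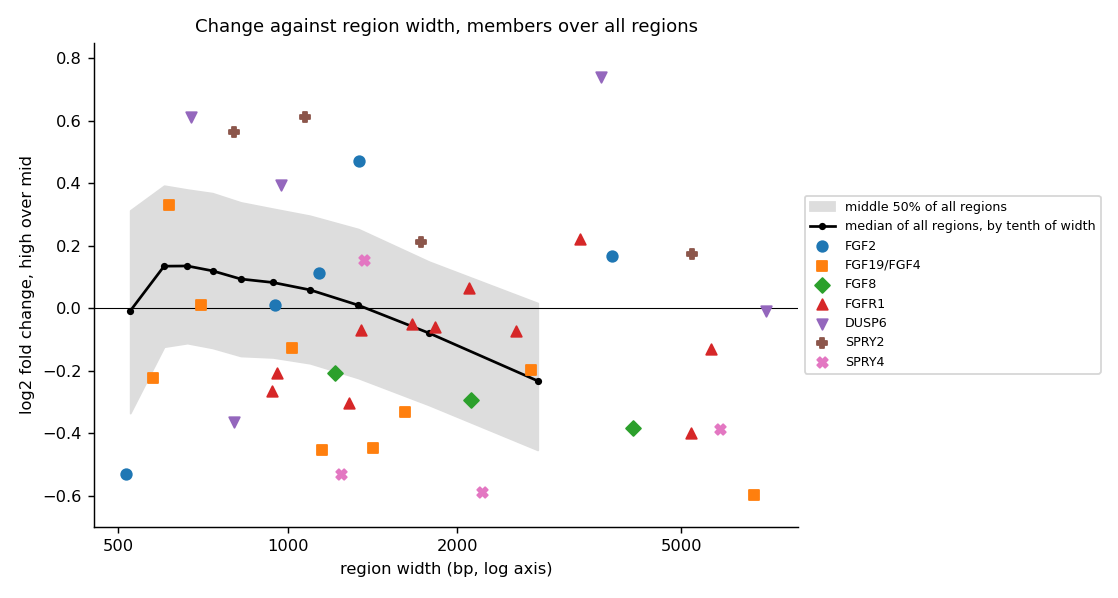
Log2 fold change of high over mid against region width (log axis) for the 41 members, with the median of all regions in 10 bins of width (black line) and their middle 50% (grey). Apart from the narrowest bin, at -0.01, the line falls from about 0.13 to -0.23 with width, DUSP6 region 3 lies far above it at 0.74, and FGF19/FGF4 region 4 lies at -0.60.

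The other genes of the pathway were read through windows around each gene. Around 10 further feedback and target genes, 9 windows held 41 regions, of which 0 were called higher in high and 1 higher in mid, with a median log2 fold change of -0.05 (0.04 with total counts). The called region was at ETV4, an ETS factor gene induced by FGF (17:41621206-41624862), with 25.6, 30.9 and 29.8 CPM in high and 55.8, 46.1 and 40.7 CPM in mid (log2 fold change -0.71, SE 0.13, adjusted p = 0.00012). Around 11 receptor and cascade genes, 51 regions held 1 called higher in high and 3 higher in mid, with a median of -0.15. The smallest p belonged to a region at MAPK3, the gene of ERK1 (16:30133526-30135215), with 6.39, 6.58 and 5.74 CPM in high and 10.7, 13.7 and 11.6 CPM in mid (log2 fold change -0.94, SE 0.17, adjusted p = 0.000117). The ETV4 and MAPK3 calls were each kept in 18 of 21 alternatives. The other called regions, named after their values were seen, were at the adaptor GRB2 (-0.51, kept in 10 of 21 alternatives, adjusted p up to 0.176), at the receptor FGFR3 (-0.49, kept in 12, up to 0.332) and, higher in high, at the docking protein FRS2 (0.60, kept in 12, up to 0.298). Together 1.09% of these 92 regions were called higher in high and 4.35% higher in mid, beside the background of 2.32% and 3.77%, and leaving out a replicate or a sample moved these counts of 1 and 4 to between 0 and 1 and between 0 and 8.

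As a check of the labels, the pluripotency loci POU5F1, SOX2 and NANOG, the sorted-marker loci CD9 and EPCAM, and SOX17, T and PAX6, genes of cells leaving pluripotency, all held open regions. Accessibility is not expression, so these regions do not tell the populations apart by identity. Of these 20 regions, 18 had negative log2 fold changes, where 46.5% of all regions did, and 1 (5%, against 3.77% of all regions), at POU5F1 (-0.45, adjusted p = 0.00869, kept in 11 of 21 alternatives), was called, higher in mid. They were wide, however, with a median of 2332 bp against 879 bp over all regions. The median log2 fold changes were -0.39 at the pluripotency, -0.14 at the sorted-marker and -0.17 at the differentiation loci. With offsets fitted on region width they were -0.17, 0.02 and -0.01. The part of width was not tested. Total counts ran from 15486251 to 29025274 per sample, and the member with the fewest reads in any sample had 20.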

How the data were processed

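FAST-ATAC libraries of 50000 sorted cells per replicate were amplified for 9 cycles. According to the submitters' processing notes and the study's methods, the authors used Trimmomatic for trimming, BWA 0.7.15 for alignment to hg19 and SAMtools 0.1.19. They removed duplicates, shifted reads to the Tn5 cut site and called regions with MACS (1.4.2 in the notes) on alignments combined across replicates, then merged the populations' regions. The deposited values are raw read counts per region and sample. Calling on combined alignments and merging makes a region's width depend on both populations, and wide regions collect more reads.

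All 118556 regions were fitted without a filter by the quasi-likelihood method of edgeR 4.0.16 (R 4.3.3), with TMM scaling and a 3-level block for the replicate number. P-values were adjusted by Benjamini-Hochberg, and regions under 0.01 were called. The study's methods use batch as a covariate, and the labels give no batch. Same-numbered samples deviated together (r = 0.30, 0.19 and 0.23, against -0.26 to 0.06 for different numbers), so the numbers were taken to pair the samples. SE is the fold change over the root of the F statistic. CPM are TMM-scaled. Single values were compared by exact permutation tests (scipy 1.17.1). limma 3.58.1 (loess, span 0.3) and DESeq2 1.42.0 served as alternatives. The fits were tested on simulated data. Counting error is covered by the fit's dispersion, not by an interval of its own.

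Regions are numbered along each window, and starts are given 1 higher than deposited, read as counting from 0. The reference was GRCh38, so no region was placed at a promoter, exon or intron, and no sequence was read from hg19 coordinates. Sequences and neighbouring genes are from RefSeq; of the 7 genes looked up, 4 had a promoter entry. Named regions were, in each window, the one with the highest mean CPM, the one with the smallest p and every called one. Windows around other genes were written from known hg19 positions with a margin of 5 kb, were not checked against an hg19 annotation, and may hold regions of neighbours; 1 further window is not reported here. The members, lists and tests were chosen with earlier results of these data known, and the within-library ratios and width limits after the values were seen.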

Additional observations from a re-analysis of the deposited data

How the results depend on the processing

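The number of member regions called higher in high (1) rose to 2 with total counts, 4 with loess offsets on average log2 CPM, 4 with loess offsets on region width and 2 at a threshold of 0.05. The number called higher in mid (2) was 1 without the replicate block, 1 and 1 with replicate 1 or 3 set apart as a batch, 0 with replicate 2 set apart, 1 with DESeq2, 4 with upper quartile scaling, 1 with total counts, 0 and 0 with the loess offsets and 5 at a threshold of 0.05. When a replicate or a sample was left out, these counts ran from 0 to 2 and from 0 to 4. The higher-in-high count fell to 0 without replicate 2 or mid replicate 2, and the higher-in-mid count fell to 0 without replicate 2, high replicate 2 or mid replicate 2 and rose to 4 without high replicate 3. In the other pathway windows, the count higher in high (1) was 0 without the replicate block, with replicate 2 or 3 set apart and with DESeq2, 2 with offsets on average CPM and 3 with offsets on width, and 0 to 1 in leave-one-out fits. Their count higher in mid (4) was 2 without the replicate block, with replicate 3 set apart, with total counts and with either loess fit, 1 with replicate 2 set apart, 14 at a threshold of 0.05, and 0 to 8 in leave-one-out fits, with 0 without replicate 2 or mid replicate 2. The counts over all 118556 regions moved as well, from 2747 higher in high and 4472 higher in mid. They were 7145 and 8391 at a threshold of 0.05, and 280 and 1312 without the replicate block. In leave-one-out fits they ran from 371 to 3815 and from 432 to 5500. Directions turned for DUSP6 region 4, near 0, to 0.0813 with total counts and 0.38 and 0.45 with the loess offsets (leave-one-out -0.0300 to 0.00834), for FGF2 region 1 to -0.0119 without mid replicate 2 (leave-one-out -0.0119 to 0.31), and for SPRY4 region 4 to 0.0187 with offsets on width. The cause was not tested. Among 231 refits of the 11 named regions, 10 changed sign, 22 lost a call and 16 gained one. With 20 reads in its lowest sample, the smallest member allows only large changes to be seen.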
